A study of Mus musculus with 16 samples.

Results

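GABAergic cells of the newborn striatum were compared with GABAergic cells of the newborn cerebellum, using the 6 arrays whose titles name these regions (3 striatum, 3 cerebellum) out of 16 arrays in the series. All cells came from GAD67-eGFP mice on a C57Bl/6 background at postnatal day 1. In this line green fluorescent protein reports the gene of glutamate decarboxylase 67 (Gad1), and green cells were isolated by flow sorting. Regional samples came from 6 dissected mice and the common reference, total RNA of whole brain, from 4 age-matched mice; the labels do not say whether the striatum and cerebellum samples share animals. Each array carried sorted-cell cDNA labelled with Cy5 and reference cDNA labelled with Cy3, 250 ng of each after global PCR amplification, and the dyes were not swapped. The other 10 arrays hold whole brain (4), cortex (3) and olfactory bulb (3) GABAergic cells and served to estimate the spread between arrays. The sort selects on a reporter, so any cell in which the reporter is on, or that was carried along, is part of the sample.

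The GABAergic neurons of the regions come from different progenitors. In the forebrain, the ganglionic eminences produce striatal projection neurons and interneurons under Dlx, Gsx and Nkx2-1 transcription factors. In the cerebellum, the Ptf1a-expressing ventricular zone produces Purkinje cells, which carry Lhx1, Lhx5 and Ebf factors, and Pax2-positive interneuron precursors, while the rhombic lip produces the glutamatergic granule cells, marked by Atoh1 and Zic factors. At birth, striatal neurons are settling into their circuits and much of the cerebellum is still forming.

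The measurement for each gene was the log2 ratio of sorted cells to reference, and the difference between the regions was striatum minus cerebellum, so that a positive value means a higher ratio in striatum. The median sorted-cell intensity ran from 296 to 389 on the striatum arrays and from 331 to 718 on the cerebellum arrays, where replicate 2 was the brightest. The share of sorted-cell spots that the scanner software marked well above background was 88.1% to 91.4% on the striatum arrays and 90.9% to 96.6% on the cerebellum arrays. Over all genes the ratios correlated with r between 0.950 and 0.969 among the striatum arrays, between 0.936 and 0.979 among the cerebellum arrays, and between 0.812 and 0.865 across the regions. These 6 arrays belong to the same scan series as the cortex and olfactory bulb arrays. The whole brain arrays, which also enter the estimate of the spread, belong to another. Striatum replicate 2, alone in the series, was read out with another extraction protocol and another setting for placing the spot grid.

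The labels were checked against genes that define the regions. Nkx2-1, a transcription factor of the ventral forebrain, lay above the reference on each striatum array and below it on each cerebellum array. En2, a transcription factor of the midbrain and hindbrain, had log2 ratios of -0.79, -0.63 and -0.70 in striatum and 0.31, 0.68 and 0.43 in cerebellum. Gad1, the gene of the reporter line, was above the reference on all 6 arrays, with log2 ratios of 1.06, 0.90 and 0.78 in striatum and 0.67, 1.26 and 0.58 in cerebellum. These ranges overlap, and the difference of 0.08 (95% interval -0.20 to 0.36, adjusted p = 0.68, limma) did not pass the test. Without cerebellum replicate 2, which had the highest value of its group, the difference was 0.29 (adjusted p = 0.038, limma), and it was 0.38 (adjusted p = 0.048) with median centring and 0.35 (adjusted p = 0.035) with scale normalization. Slc17a7, a vesicular glutamate transporter, lay between -3.49 and -3.22 in striatum and between -4.17 and -3.11 in cerebellum. Its difference of 0.19 (adjusted p = 0.53, limma) turned to -0.78 (adjusted p = 7.62e-05, limma) with scale normalization.

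Of 27262 genes tested, 10574 (38.8%) passed a Benjamini-Hochberg adjusted p of 0.05 in limma, 4306 (15.8%) with a higher ratio in striatum and 6268 (23%) with a lower one. Most of these differences were small. A difference of 2-fold or more was called for 385 genes (1.41%), of which 216 (0.792%) were higher and 169 (0.62%) lower in striatum, and one of 4-fold or more for 21 and 27 genes in the same order. With median centring in place of loess the 2-fold genes numbered 466 higher and 229 lower, and with scale normalization between arrays 249 higher and 266 lower, so that the larger side changed. Without striatum replicate 2 the 2-fold count was 416, and without cerebellum replicate 2 it was 382. The background rate of 38.8% is high, so counts of list members below are read against it and against the 2-fold rate. The median over all genes was -0.07. As these are bulk samples, fewer cells of a type and less RNA per cell cannot be told apart. The labels call the samples biological replicates, and the p-values measure the spread between these samples.

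**Figure D1:**
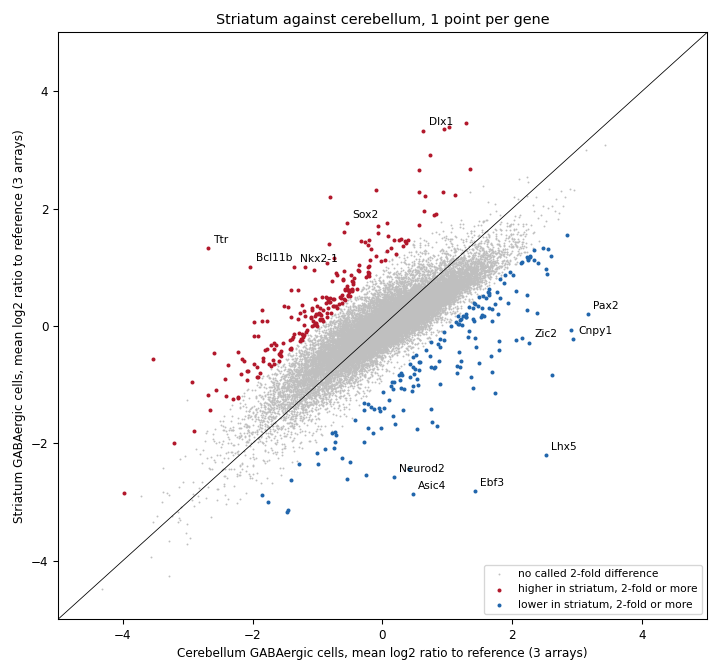
Mean log2 ratio to the reference in striatum (vertical axis) against cerebellum (horizontal axis), 3 arrays each, with 1 point per gene tested; the 216 genes called with a higher ratio of 2-fold or more in striatum are red and the 169 with a lower one are blue. Ttr and Bcl11b lie far above the diagonal, Lhx5, Ebf3 and Asic4 far below it.

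Genes of the Dlx family were among those with the largest differences in favour of striatum. These homeobox factors specify GABAergic neurons of the forebrain. Dlx1 had log2 ratios of 3.45, 3.31 and 3.22 in striatum and 0.58, 0.68 and 0.63 in cerebellum, a difference of 2.70 (SE 0.096, adjusted p = 2.58e-13, limma). Dlx2 had 2.31, 2.38 and 2.26 in striatum and -0.06, -0.35 and 0.10 in cerebellum, a difference of 2.42 (SE 0.13, adjusted p = 6.57e-11, limma). For both genes every striatum array lay at least 2 log2 units above every cerebellum array, and for Dlx1 the cerebellum arrays were themselves above the reference. Dlx5 (2.10), Dlx6 (1.57) and Dlx6os1 (2.18), a non-coding transcript that runs across Dlx6 on the opposite strand, were higher too; the labelled material was amplified PCR product, so signal from overlapping transcripts of opposite strands cannot be told apart. Dlx1 and Dlx2, and likewise Dlx5 and Dlx6, are adjacent in the RefSeq annotation, with 0 coding genes between them.

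Of the 9 forebrain GABAergic transcription factors tested, 7 were higher in striatum and 0 lower, 6 of them by 2-fold or more, and the list median was 2.10 against -0.07 over all genes. Besides the Dlx genes these included Sp8 (2.19), a zinc finger factor of lateral and caudal ganglionic eminence lineages. Gsx2 and Gsx1, which act in progenitors of the eminences, gave -0.22 (adjusted p = 0.076) and 0.00 (adjusted p = 0.995). In the sorted-cell channel alone the same count of 7 higher and 0 lower was found.

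Striatal projection neurons send the output of the striatum and divide into a direct pathway with dopamine D1 receptors and an indirect pathway with D2 receptors. Bcl11b (Ctip2), a zinc finger factor needed for their differentiation, had log2 ratios of 1.10, 0.95 and 0.98 in striatum and -2.07, -2.04 and -1.99 in cerebellum. The arrays of each region lay close together, the regions lay on opposite sides of the reference, and the difference was 3.04 (SE 0.092, adjusted p = 2.51e-14, limma). Foxp1, a forkhead factor of projection neurons, had 0.42, 0.36 and 0.26 in striatum and -1.53, -1.41 and -1.59 in cerebellum, a difference of 1.86 (SE 0.093, adjusted p = 3.29e-11, limma). Isl1, a LIM homeobox factor of the direct pathway and of cholinergic neurons, had 1.48, 1.27 and 1.54 in striatum and -0.21, -0.34 and -0.25 in cerebellum, a difference of 1.70 (SE 0.12, adjusted p = 6.48e-09, limma).

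Among 20 genes shared by both types of projection neuron, 9 were higher and 4 lower in striatum, with 7 higher and 0 lower by 2-fold or more and a median of 0.11. Among the 9 that rose were Bcl11b, Foxp1, Foxp2 (1.79), Meis2 (1.11), Foxo1 (1.11), Zfp503 (1.10), the cyclic nucleotide phosphodiesterase Pde10a (1.04) and the G protein subunit Gng7 (0.72). The 4 that fell were Pde1b (-0.89), Arpp21 (-0.45), Ikzf2 (-0.36) and Ppp1r1b (-0.35), the last of which encodes DARPP-32, a signalling protein of mature projection neurons. The signs of Ikzf2 and Ppp1r1b turned under other settings given in the closing section, and Arpp21 gave -0.28 (adjusted p = 0.069) with median centring and -0.03 (adjusted p = 0.83) with the mean of its probes. Gng7 was 0.31 with scale normalization. Of 8 direct pathway genes, 1 was higher (Isl1) and 3 lower (Eya1, Ebf1 and Slc35d3), with a median of -0.20, and of 7 indirect pathway genes 2 were higher (Penk, 1.02, the enkephalin precursor, and Six3, 0.38) and 2 lower (Ptprm and Grik3), with a median of -0.17. For Ebf1 the spot on cerebellum replicate 1 was marked by the scanner software and left out. Grik3 lost its call under several settings, with -0.03 (adjusted p = 0.87) for median centring.

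The receptors that separate the pathways in the adult did not pass the test by the brightest probe. Drd1 differed by -0.11 (95% interval -0.39 to 0.18, adjusted p = 0.56, limma) and Drd2 by 0.10 (95% interval -0.13 to 0.34, adjusted p = 0.49, limma), or by 0.52 (adjusted p = 0.000347) with the mean of its probes. Tac1, the substance P precursor, gave -0.23 and Pdyn, the dynorphin precursor, 0.00, and the log2 ratios of both were above 0 on all 6 arrays. Of 21 genes of dopamine, adenosine, muscarinic and opioid signalling, 3 were higher and 8 lower, with a median of -0.17. Among 12 striosome and matrix genes 5 were higher and 2 lower, with a median of 0.19; Id4 (2.19), an inhibitor of basic helix-loop-helix factors, and Epha4 (0.91), a receptor for ephrins, had the highest values, and Oprm1, the mu opioid receptor, was lower (-0.55), but not with the mean of its probes (-0.14, adjusted p = 0.11).

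Genes of the medial ganglionic eminence, the source of most striatal interneurons and of pallidal neurons, were higher in part. Nkx2-1, the factor that specifies this eminence, had log2 ratios of 1.03, 0.95 and 1.01 in striatum and -1.24, -1.41 and -1.43 in cerebellum, a difference of 2.36 (SE 0.14, adjusted p = 4.18e-10, limma). All 3 striatum arrays were above the reference and all 3 cerebellum arrays below it. Of 16 genes on the list 7 were higher, 5 of them by 2-fold or more, and 4 lower, with a median of 0.17. The LIM homeobox factors Lhx6 (1.39) and Lhx8 (1.22), which act downstream of Nkx2-1, the ETS factor Etv1 (2.19) and neuropeptide Y (Npy, 1.97) were higher. Somatostatin (Sst), a peptide of a class of interneurons, was lower (-0.77) and far below the reference in both regions, at -2.08, -2.14 and -2.19 in striatum and -1.49, -1.18 and -1.43 in cerebellum. Of 10 genes of the caudal eminence 2 were higher (Sp8 and the serotonin receptor Htr3a, 0.80) and 1 lower (Calb2, -0.51), with a median of 0.07. With median centring Sst gave -0.34 (adjusted p = 0.054) and Calb2 -0.26 (adjusted p = 0.17).

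Of 14 telencephalic patterning factors tested 6 were higher, 3 by 2-fold or more, and 2 lower, with a median of 0.19. Lmo4 (1.79), a LIM-only cofactor, and Vax1 (1.78), a homeobox factor of the ventral forebrain, were among the higher ones, and Emx2, a factor of the dorsal telencephalon, was lower (-0.84). Lmo4 gave 0.97 with the mean of its probes.

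Purkinje cell factors gave the lowest values of the comparison. Lhx5, a LIM homeobox factor of Purkinje cell development, had log2 ratios of -2.15, -2.05 and -2.38 in striatum and 2.44, 2.55 and 2.55 in cerebellum. The difference was -4.71 (SE 0.15, adjusted p = 7.09e-14, limma). With the scanner software's own log ratio it was -7.14, so its size depends on the processing. Lhx5 was well above background on 2 of 3 striatum arrays and on all 3 cerebellum arrays. Ebf3, a helix-loop-helix factor of the same lineage, had -3.02, -2.74 and -2.69 in striatum and 1.40, 1.57 and 1.30 in cerebellum, a difference of -4.24 (SE 0.11, adjusted p = 2.26e-15, limma). The arrays of each region stayed close together, and for both genes the regions lay on opposite sides of the reference. The 2 probes of Ebf3 differed in size, at -4.24 and -1.77. Skor1, a co-repressor related to the Purkinje cell factor Skor2, had -0.13, -0.07 and -0.00 in striatum and 2.69, 3.37 and 2.64 in cerebellum, a difference of -2.97.

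Purkinje cell genes as a list went both ways. Of 24 tested, 6 were higher and 13 lower in striatum, 2 and 3 of them by 2-fold or more, and the median was -0.32. Lhx1 (-0.97), the Reelin adaptor Dab1 (-0.57) and Rora (-0.35), a nuclear receptor required by Purkinje cells, were among the lower genes. Foxp2 (1.79), Foxp4 (1.53), the calcium-binding protein gene Calb1 (0.95), the calmodulin-binding protein gene Pcp4 (0.91), Rgs8 (0.88) and Homer3 (0.45) were higher in striatum, and Foxp2 stands on the list of projection neuron genes as well. The Calb1 values were -1.40, -1.46 and -1.37 in striatum and spread widely in cerebellum, where replicate 2 was lowest at -3.24 and the highest was -1.83; without cerebellum replicate 2 the difference was 0.50, and with scale normalization it was 0.43, with Pcp4 at 0.34. With median centring Dab1 gave -0.36 (adjusted p = 0.054) and Rora -0.27 (adjusted p = 0.10), and Rora gave -0.01 with the mean of its probes. Shh, which Purkinje cells secrete to drive granule cell precursors, gave 0.01 (adjusted p = 0.97).

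Among 14 genes of cerebellar and other hindbrain GABAergic progenitors and interneurons, 10 were lower in striatum, 6 by 2-fold or more, and 1 higher (Olig2, 0.29), with a median of -0.90. Pax2, the marker of cerebellar interneuron precursors, had log2 ratios of 0.10, 0.14 and 0.36 in striatum and 3.06, 3.06 and 3.39 in cerebellum, a difference of -2.96 (SE 0.13, adjusted p = 4.93e-12, limma). Tfap2b, an AP-2 factor of the GABAergic lineage, had -1.19, -1.02 and -0.97 in striatum and 1.22, 1.68 and 1.26 in cerebellum, a difference of -2.45 (SE 0.12, adjusted p = 1.05e-11, limma). Both genes separated the regions without overlap. Gata3 (-1.94) and Tal1 (-1.80), which act together in hindbrain and midbrain GABAergic neurons, and Tfap2a (-1.39) were lower as well. Pax3 was not well above background on any striatum array. Its log2 signals in the sorted-cell channel were 6.07, 5.99 and 5.97 in striatum and 8.35, 8.68 and 8.04 in cerebellum. By these signals as measured it was 5.08-fold lower in striatum (adjusted p = 8.74e-09, limma). Its ratio to the reference differed by -2.17 (mean log2 ratio -0.50 in striatum and 1.66 in cerebellum). Ptf1a itself, which is switched on in progenitors and soon off, was lower by a small amount (-0.30, adjusted p = 0.031, limma), a call lost without single arrays (adjusted p up to 0.095).

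Genes of the granule cell lineage, which is glutamatergic, were lower in striatum as a group. Of 24 tested, 18 were lower, 8 of them by 2-fold or more, and 0 higher, with a median of -0.61; in the sorted-cell channel alone 15 were lower and 0 higher. Zic1, a zinc finger factor of the rhombic lip, had log2 ratios of 0.29, 0.30 and 0.09 in striatum and 2.26, 2.70 and 2.19 in cerebellum, a difference of -2.16 (SE 0.11, adjusted p = 4.93e-11, limma). Zic2 (-2.54), Zic5 (-2.23), Nhlh2 (-2.05), Reln (-1.70), which encodes the migration signal Reelin, Nhlh1 (-1.62), Neurod1 (-1.39) and Barhl1 (-1.37) were lower, and Atoh1, which defines the lineage, was lower by less (-0.52). Zic4, which lies beside Zic1 in the genome with 0 coding genes between them, gave 0.06 (95% interval -0.19 to 0.31, adjusted p = 0.72, limma). Over the 24 genes the median log2 ratio per array lay between -0.19 and -0.03 in striatum and between 0.56 and 0.64 in cerebellum, and none of the defining genes was at background in cerebellum except the mature granule cell gene Gabra6, well above it on 1 array. The part of granule cells in the differences of other genes was not tested.

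Midbrain and hindbrain patterning factors went the same way, with 12 of 21 lower, 3 of them by 2-fold or more, and 0 higher, and a median of -0.33. Cnpy1, a modulator of FGF signalling at the midbrain-hindbrain boundary, had log2 ratios of -0.20, -0.22 and -0.25 in striatum and 2.77, 3.27 and 2.78 in cerebellum, a difference of -3.16 (SE 0.16, adjusted p = 3.86e-11, limma), with its 2 probes at -3.16 and -1.71. Irx1 (-1.29), En2 (-1.18), Pax7 (-0.81) and Irx2 (-0.68) were lower. En1 was not well above background on any striatum array and was at least 1.57-fold lower there by the signal of the sorted-cell channel (adjusted p = 0.000737, limma). Its ratio differed by -0.69 (mean log2 ratio -0.47 in striatum and 0.23 in cerebellum). Otx2, a factor of forebrain, midbrain and granule cell precursors, was lower in striatum (-2.30). Of 30 Hox genes, which pattern the hindbrain behind the cerebellum, 8 were lower and 2 higher (Hoxa9, 1.77, and Hoxb3, 1.18), with a median of -0.13. Hoxb3 gave 0.46 with the mean of its probes.

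**Figure D2:**
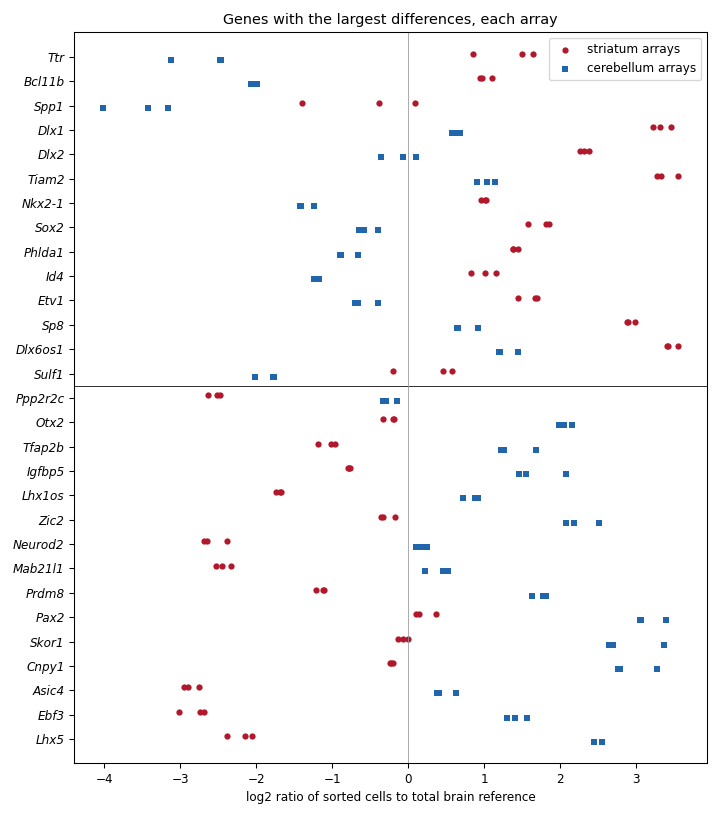
Log2 ratio of sorted cells to the total brain reference on each array for the 15 called genes with the highest and the 15 with the lowest striatum minus cerebellum difference, 1 of the highest left out (red circles, 3 striatum arrays; blue squares, 3 cerebellum arrays). The arrays of the regions do not overlap for any of these genes, as the rule that chose them required, and Spp1 and Ttr spread more within a region than Bcl11b or Nkx2-1.

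Neurod2, a helix-loop-helix factor of glutamatergic neurons of cortex and cerebellum, had log2 ratios of -2.69, -2.38 and -2.65 in striatum and 0.10, 0.18 and 0.25 in cerebellum, a difference of -2.75 (SE 0.11, adjusted p = 1.27e-12, limma). It stands on a list of 14 forebrain glutamatergic genes, of which 3 were higher and 5 lower, with a median of -0.12. The other lower members were Nrn1 (-1.81), Bhlhe22 (-1.72), Neurod6 (-1.22) and Sla (-0.65), and Mef2c (1.12) was among the higher ones. The cortical layer factor Tbr1 gave 0.23 (adjusted p = 0.18) and lay at or below -2.05 on all 6 arrays; with scale normalization it gave -0.41 (adjusted p = 0.012) and with median centring 0.37 (adjusted p = 0.049). The vesicular transporter Slc17a6, used by many brainstem and early neurons, gave -0.21 (adjusted p = 0.17), but -0.58 (adjusted p = 0.00043) with scale normalization.

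Promoter windows of 250 bases before the first listed start site of each gene (RefSeq, GRCm38.p6) were searched on both strands. The motifs were the homeodomain core TAATTA, which Dlx and Lhx proteins can bind, and the helix-loop-helix E-box CAGATG, which Neurod and Atoh1 proteins can bind. Other start sites of a gene were not searched, and the window of Dlx6os1, among others, lies inside its annotated gene (6820543 to 6871627). A window was at hand for 11 of the 15 highest and 11 of the 15 lowest genes. TAATTA stood in 1 of the 11 highest (Dlx6os1) and 1 of the 11 lowest (Otx2), against 4.9% of 27025 windows of all genes, and CAGATG in 0 and 2 (Cnpy1 and Neurod2), against 14.5%. The windows that hold a motif are shown with the motif in capitals, CATCTG being the same E-box read on the other strand.
Dlx6os1 (chr6:6869534-6869783, minus strand): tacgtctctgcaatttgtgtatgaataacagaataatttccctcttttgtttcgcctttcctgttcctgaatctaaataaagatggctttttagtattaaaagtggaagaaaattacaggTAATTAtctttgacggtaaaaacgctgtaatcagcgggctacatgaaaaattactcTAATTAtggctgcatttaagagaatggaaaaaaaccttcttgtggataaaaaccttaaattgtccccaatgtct
Otx2 (chr14:48667645-48667894, minus strand): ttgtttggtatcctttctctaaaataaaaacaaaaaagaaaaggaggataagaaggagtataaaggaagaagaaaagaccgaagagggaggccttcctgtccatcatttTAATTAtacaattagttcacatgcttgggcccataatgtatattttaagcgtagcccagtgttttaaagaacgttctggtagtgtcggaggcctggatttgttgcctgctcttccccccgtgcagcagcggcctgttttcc
Cnpy1 (chr5:28245789-28246038, minus strand): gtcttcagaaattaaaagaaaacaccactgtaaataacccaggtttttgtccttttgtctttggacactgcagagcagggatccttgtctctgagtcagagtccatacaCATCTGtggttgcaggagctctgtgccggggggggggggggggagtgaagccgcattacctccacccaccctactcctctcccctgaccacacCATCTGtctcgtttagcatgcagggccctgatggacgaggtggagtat
Neurod2 (chr11:98329646-98329895, minus strand): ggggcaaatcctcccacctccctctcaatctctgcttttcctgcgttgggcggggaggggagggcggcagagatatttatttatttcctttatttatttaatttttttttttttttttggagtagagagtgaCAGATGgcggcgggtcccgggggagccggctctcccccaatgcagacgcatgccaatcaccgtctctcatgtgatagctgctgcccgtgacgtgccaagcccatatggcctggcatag
Dlx6os1 and Cnpy1 each hold 2 matches and the others 1. A match describes these letters in this window and is not evidence of a bound site.

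The remaining genes among the 15 highest have varied roles. Sox2, a factor of neural progenitors, had log2 ratios of 1.85, 1.82 and 1.57 in striatum and -0.64, -0.40 and -0.58 in cerebellum, a difference of 2.29 (SE 0.097, adjusted p = 2.8e-12, limma). Tiam2 (2.36), an exchange factor for the GTPase Rac, Phlda1 (2.22) and Sulf1 (2.14), an enzyme that trims sulfate from heparan sulfate, were higher in striatum. Among the 15 lowest, Asic4, an acid-sensing ion channel subunit, had -2.90, -2.76 and -2.95 in striatum and 0.38, 0.63 and 0.41 in cerebellum, a difference of -3.34 (SE 0.095, adjusted p = 1.26e-14, limma). The arrays of the 2 regions stood more than 3 log2 units apart for this gene. Prdm8 (-2.89), a transcriptional regulator of the PRDM family, Mab21l1 (-2.84), Lhx1os (-2.53), a transcript from the strand opposite Lhx1, Igfbp5 (-2.47), a binding protein for insulin-like growth factors, and Ppp2r2c (-2.28), a regulatory subunit of protein phosphatase 2A, were lower. The 3 probes of Prdm8 ranged from -2.89 to -0.35.

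The genes that make and handle GABA did not separate the regions as a group. Of 6 tested, 2 were higher and 3 lower in striatum, with a median of -0.24. Gad2, the second glutamate decarboxylase, had log2 ratios of 1.97, 1.70 and 1.65 in striatum and 0.85, 1.17 and 0.68 in cerebellum, a difference of 0.88 (SE 0.11, adjusted p = 8.78e-06, limma). Slc32a1, which loads GABA into vesicles, had 0.72, 0.55 and 0.62 in striatum and 1.40, 1.79 and 1.31 in cerebellum, a difference of -0.87 (SE 0.12, adjusted p = 2.46e-05, limma). Gad2 and Slc32a1 were above the reference on all 6 arrays, and they differed in opposite directions. Abat (-0.55), which breaks down GABA, and the glial transporter Slc6a11 (-0.58) were lower, but with median centring Abat gave -0.25 (adjusted p = 0.16) and Slc6a11 -0.32 (adjusted p = 0.057). Of 16 neuropeptide genes 3 were higher (Npy, Penk and Nts, 0.95) and 5 lower, among them Pnoc (-1.11) and Cartpt (-0.83), with a median of -0.19. Nts gave 0.18 (adjusted p = 0.16) with scale normalization.

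**Figure D3:**
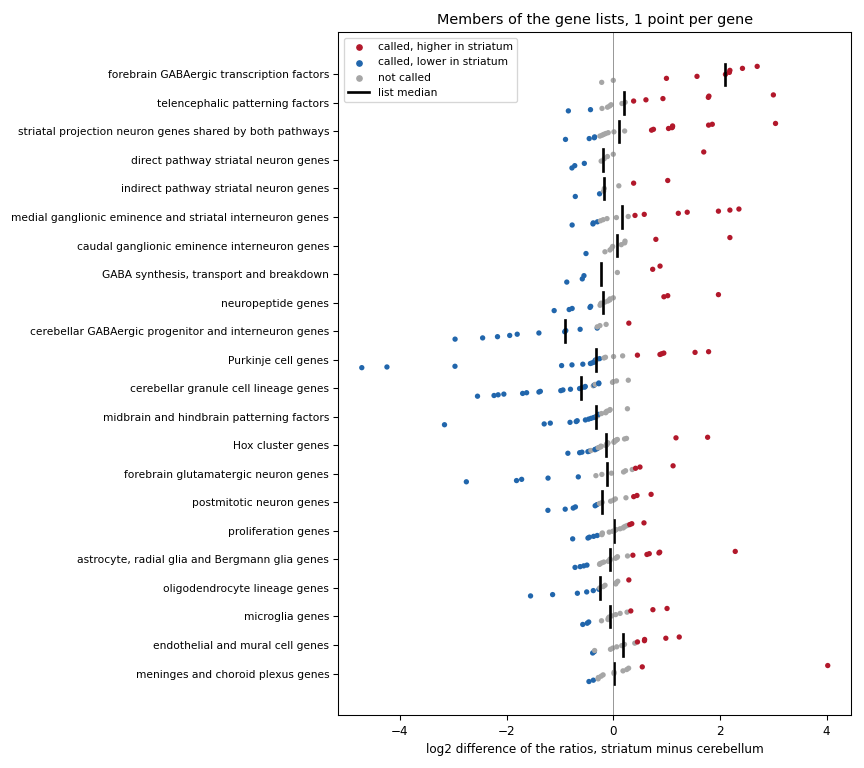
Striatum minus cerebellum log2 difference of each tested member of 22 gene lists, 1 point per gene (red, called higher in striatum; blue, called lower; grey, not called), with the list median as a black bar. The forebrain GABAergic factors sit to the right, with a median of 2.10, and the cerebellar GABAergic progenitor genes and granule cell genes to the left, with medians of -0.90 and -0.61.

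Genes of non-neuronal cells that a sort could carry along were examined beside these results. Ttr, which encodes transthyretin and is the leading gene of choroid plexus epithelium, had the highest difference of all: its log2 ratios were 1.50, 0.85 and 1.64 in striatum and -2.47, -3.13 and -2.48 in cerebellum, a difference of 4.02 (SE 0.19, adjusted p = 9.1e-12, limma). It was above the reference on every striatum array and below it on every cerebellum array, and striatum replicate 2 was the lowest of its group. Of 13 meninges and choroid plexus genes 2 were higher (Ttr and Igf2) and 2 lower (Kl and Ptgds), with a median of 0.01 (Igf2 was 0.54, and -0.29 with scale normalization), and the choroid plexus genes Folr1 and Clic6 gave -0.28 and 0.29 without passing the test. The median log2 ratio of this list lay between -0.47 and -0.32 on the striatum arrays and between -1.11 and -0.69 on the cerebellum arrays. Of 14 endothelial and mural cell genes 5 were higher, among them the glucose transporter Slc2a1 (1.24) and the tight junction gene Cldn5 (0.99), and 2 lower, with a median of 0.19 and a list level between -0.90 and -0.44 in striatum and between -1.05 and -0.98 in cerebellum. The part of these cells in the differences was not tested.

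Of 14 microglia genes 3 were higher and 3 lower, with a median of -0.05; Cd68 (0.74) and Ctss (1.01) were higher, and the list level ran from -0.21 to -0.12 in striatum and from -0.30 to -0.19 in cerebellum. Of 13 oligodendrocyte lineage genes 1 was higher and 6 lower, with a median of -0.25 and a list level from -0.89 to -0.79 in striatum and from -0.24 to -0.17 in cerebellum. Mog, a protein of the outer myelin layer, had log2 ratios of 0.91, 0.97 and 1.04 in striatum and 2.52, 2.18 and 2.87 in cerebellum, a difference of -1.55; the mean of its probes gave -0.11 (adjusted p = 0.55). Of 22 genes of astrocytes and radial glia 6 were higher, with Sox2 and the glutamate transporter Slc1a3 (0.87) at the top, and 4 lower, with a median of -0.06 and a list level from -0.92 to -0.79 in striatum and from -0.83 to -0.68 in cerebellum. Slc1a3 gave 0.26 (adjusted p = 0.0498, limma) with the mean of its probes and 0.51 with scale normalization. Of 6 erythroid genes 1 was higher (Hba-a1, 0.54, and -0.02 with scale normalization) and 0 lower, with a median of -0.17. The part of these cells was not tested either.

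The sorted-cell channel was then examined by itself. Its log2 signals were taken after loess and after quantile normalization, across arrays, of the average intensity of both channels. Both steps use the reference channel, so these signals are not independent of it. The channel gave 5508 called genes (20.2%), 2917 higher (10.7%) and 2591 lower (9.5%) in striatum, and 377 (1.38%) with a 2-fold difference, 211 higher (0.774%) and 166 lower (0.609%). Quantile normalized without the reference, it gave 5868 called genes and 429 with a 2-fold difference, 239 higher and 190 lower. The count of 5508 was 2845 without striatum replicate 1 and 3630 without cerebellum replicate 1. Of the 385 genes with a 2-fold difference of the ratio, 381 were called in the same direction in the sorted-cell channel, and in 379 the arrays of the regions did not overlap in either measure, as was so for 32.5% of all genes. Bcl11b had log2 signals of 12.33, 12.39 and 12.24 in striatum and 9.34, 9.32 and 9.39 in cerebellum, and Lhx5 had 5.92, 5.92 and 5.65 in striatum and 10.56, 10.69 and 10.54 in cerebellum. Their differences in this channel were 2.97 and -4.77, close to those of the ratio.

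The reference channel held the same RNA on every array, and 1 gene (0.00367%) was called in it, and 0 without striatum replicate 2 or without cerebellum replicate 2. This was Spp1, which encodes osteopontin and is expressed by activated microglia among other cells; of its ratio difference of 2.97, 45% lay in the reference channel, and its log2 ratios ranged widely, at -0.39, 0.09 and -1.40 in striatum and -3.43, -4.02 and -3.16 in cerebellum. The 4 other called 2-fold genes with the largest share in the reference channel were Ctss (79.6%), Lyz2 (46.3%), Gpnmb (45.7%) and Ugt2a3 (35.8%), and Ctss, Lyz2 and Gpnmb are genes of macrophages and microglia. The 2 probes of Lyz2 gave -0.21 and 1.51, and the 2 of Gpnmb 0.10 and 1.17. With the mean of the probes Lyz2 was 0.65 and Gpnmb 0.64, below 2-fold. In the sorted-cell channel alone Ctss gave 0.21 (adjusted p = 0.371, limma) and Lyz2 0.81 (adjusted p = 0.333, limma), and neither passed. Ctss was the only 1 of the 385 genes with more of its difference in the reference than in the sorted-cell channel.

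**Figure D4:**
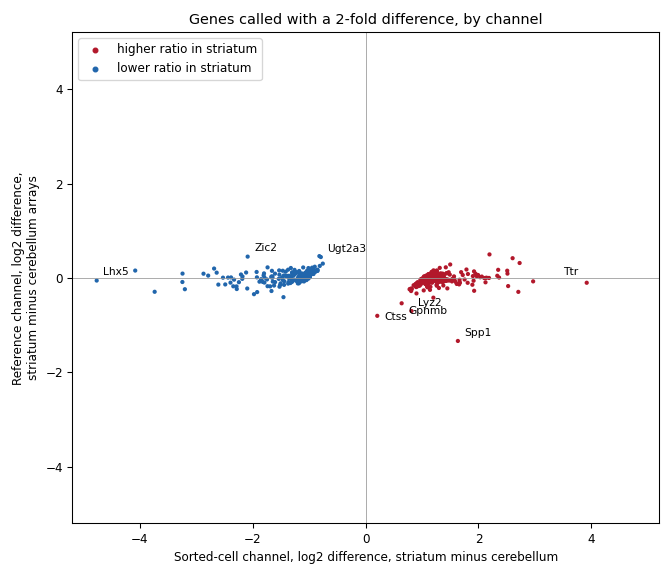
Striatum minus cerebellum log2 difference in the reference channel (vertical axis) against that in the sorted-cell channel (horizontal axis), on equal scales, for the 385 genes called with a 2-fold difference (red, higher ratio in striatum; blue, lower). The points lie along the horizontal axis, and Spp1 and Ctss lie farthest from it, at -1.33 and -0.80 in the reference channel.

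Values in cortex and olfactory bulb show where the 2 regions stood among GABAergic cells of other regions; these comparisons share the striatum or cerebellum arrays with the results above. Striatum differed from cortex in 18.8% of genes and from olfactory bulb in 27.7%, and cerebellum differed from cortex in 26% and from olfactory bulb in 39.8% (adjusted p under 0.05, limma). Dlx1 averaged 3.33 ± 0.12 in striatum, 0.63 ± 0.05 in cerebellum, 3.46 ± 0.11 in cortex and 3.82 ± 0.02 in olfactory bulb (log2 ratio, SD, n = 3 each). Bcl11b averaged 1.01 ± 0.08 in striatum, -2.03 ± 0.04 in cerebellum, 0.33 ± 0.12 in cortex and -0.54 ± 0.15 in olfactory bulb, and was higher in striatum than in both other forebrain regions (by 0.68 and 1.55). For Nkx2-1 the means were 1.00 ± 0.04 in striatum, -1.36 ± 0.11 in cerebellum, -0.01 ± 0.06 in cortex and -1.87 ± 0.26 in olfactory bulb. Dlx1 was thus high in each forebrain region, whereas Bcl11b and Nkx2-1 were highest in striatum.

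Among genes lower in striatum, Lhx5 averaged -2.20 ± 0.17 in striatum, 2.52 ± 0.06 in cerebellum, -1.85 ± 0.23 in cortex and -1.49 ± 0.41 in olfactory bulb. Pax2 averaged 0.20 ± 0.14 in striatum, 3.17 ± 0.19 in cerebellum, -0.04 ± 0.13 in cortex and 0.12 ± 0.26 in olfactory bulb. Zic1 averaged 0.23 ± 0.12 in striatum, 2.38 ± 0.28 in cerebellum, -0.74 ± 0.02 in cortex and 0.84 ± 0.11 in olfactory bulb, so that striatum lay between the other forebrain regions. Foxp1 was lower in olfactory bulb (-2.48 ± 0.18) than in cerebellum (-1.51 ± 0.09), and Ttr averaged 1.33 ± 0.42 in striatum, -2.69 ± 0.38 in cerebellum, -1.49 ± 0.06 in cortex and -2.09 ± 0.22 in olfactory bulb.

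**Figure D5:**
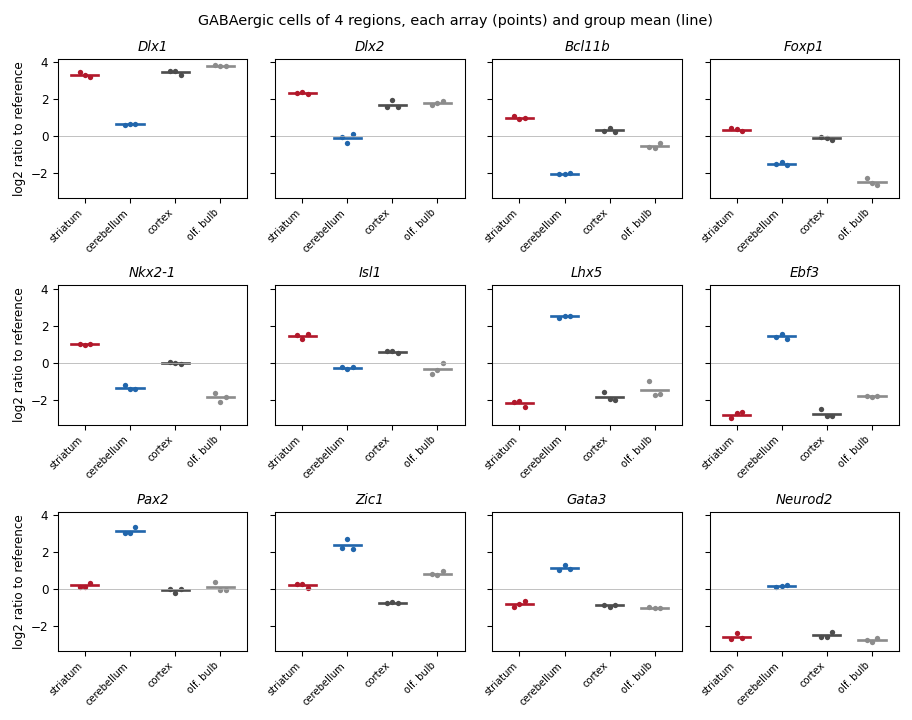
Log2 ratio to the reference of 12 genes on each array (points) with the group mean (line) in GABAergic cells of striatum, cerebellum, cortex and olfactory bulb, 3 arrays each. Lhx5, Ebf3, Pax2, Gata3 and Neurod2 are higher in cerebellum than in the other 3 regions, Dlx1 and Dlx2 are lower in cerebellum than in the other 3 regions, and Foxp1, Nkx2-1 and Bcl11b differ among the forebrain regions too.

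Genes of axon guidance and signalling held some of the larger differences. Plxna4, a semaphorin receptor, had log2 ratios of -0.42, -0.57 and -0.40 in striatum and -2.61, -2.79 and -2.37 in cerebellum, a difference of 2.13 (SE 0.10, adjusted p = 1.89e-11, limma), and its relative Plxna2 was higher by 1.67. Their ligand Sema6a was lower in striatum (-1.50), with -0.80, -0.75 and -0.60 in striatum and 0.71, 0.89 and 0.76 in cerebellum. Of 28 semaphorin, plexin and neuropilin genes 8 were higher and 9 lower, with a median of 0.06. Of 21 Eph receptor and ephrin genes 7 were higher and 7 lower, with a median of 0.00. Among the higher were the ligands Efnb2 (1.24), Efna2 (0.94) and Efnb3 (0.92) and the receptor Epha4 (0.91). The receptors Ephb1 (-1.96), Ephb6 (-0.94) and Ephb2 (-0.62) were among the lower.

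In the Sonic hedgehog pathway, which drives proliferation of granule cell precursors, 9 of 14 genes were lower in striatum and 2 higher. The median was -0.36, and none was past 2-fold by the brightest probe. The lower genes included the inhibitor Sufu (-0.98), the co-receptor Boc (-0.84) and the transcription factors Gli2 (-0.56), Gli3 (-0.43) and Gli1 (-0.36). Gli1 gave -0.25 (adjusted p = 0.12) with median centring and Gli3 -0.21 (adjusted p = 0.054) with the mean of its probes. By the mean of its probes Gli2 was past 2-fold, at -1.33 (adjusted p = 0.000139, limma). In the Notch pathway 6 of 21 genes were higher and 9 lower, with a median of -0.08; the receptor Notch1 (0.88), the glycosyltransferase Mfng (1.00) and the target Hes1 (0.86) were higher, and the receptor Notch3 (-0.64) and the targets Hey1 (-0.92) and Hes5 (-0.72) lower, though Hes5 gave -0.23 (adjusted p = 0.18) with median centring.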

How the data were processed

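RNA of sorted cells and a common reference was measured on 16 two-colour Agilent arrays, and 6 of them, 3 striatum and 3 cerebellum, were compared here. Per the file headers, the deposited scanner files hold mean spot intensity and median background intensity of both channels. Per the submitters' processing notes the software was Agilent Feature Extraction 8.1.1.1. The authors also deposited that software's log10 ratio of Cy5 to Cy3, per the file headers, and the deposited values of the series equal it to within 0.005, so scale and direction are known; the column medians ran from 0 to 0.0334, without further centring. Ratios were read as sorted cells (Cy5) over reference (Cy3) from the dyes named in all labels, although those for Cy3 add the colour red. The arrays' number limits the precision of each value.

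Intensities were corrected by normexp with an offset of 50, so that dim spots have ratios closer to 0, and normalized by loess within each array (limma 3.58.1, R 4.3.3, its package data.table in version 1.17.8; figures by matplotlib 3.10.9). Spots marked by the software were left out (537 values on the 6 arrays), as was 1 spot with a missing field. Probes (41173) took RefSeq symbols by accession (21444), symbol (5431) or synonym (4636), or kept the array's name (9662), and the brightest probe stood for each gene. Of 28655 genes, 1393 dim ones were removed: those well above background on fewer than 3 arrays in the sorted channel and fewer than 8 in the reference channel. All 16 arrays were fitted with a mean for each group, and striatum minus cerebellum was tested by limma with Benjamini-Hochberg adjustment. Each channel was tested by itself after loess and Aquantile normalization (quantile normalization of the average intensity), steps that draw on both channels. For genes well above background on no array of a region, folds are bounds against a limit set on each array. This limit was the gene's own signal or, where higher, the lowest signal well above background. For Pax3 its own signals gave the fold. On simulated data in which 100 of 27262 genes were changed, 100% of the 2-fold and of the 4-fold changes were recovered. Each of these fits also made 12 false calls, to be read against the 100 changed genes. Smaller changes, which make up most of the calls here, were not simulated. Nor was a share of changed genes near the 38.8% called here.

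The 15 highest and 15 lowest called genes with a symbol whose arrays do not overlap in the ratio and in the sorted-cell channel were named, with members of the 38 gene lists and the 5 called 2-fold genes with the largest share in the reference channel. Some genes, 1 of the 15 highest among them, are counted but not reported here by name. The comparison, lists and rules were chosen with earlier results of these data known. Alternatives changed the arrays fitted, the background correction, the normalization, the filter, the probe rule and the channel, and left out each array in turn.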

Additional observations from a re-analysis of the deposited data

Results flagged for a closer look

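Genes among those with the largest differences whose every striatum array lay on one side of the reference and every cerebellum array on the other, by 2-fold or more in both mean ratios, stood out because the regions moved in opposite directions from whole brain. They were Ttr, with a mean log2 ratio of 1.33 in striatum and -2.69 in cerebellum (difference 4.02), and Bcl11b, with 1.01 in striatum and -2.03 in cerebellum (difference 3.04). In the other direction they were Lhx5, with -2.20 in striatum and 2.52 in cerebellum (difference -4.71), Ebf3, with -2.82 in striatum and 1.42 in cerebellum (difference -4.24), Prdm8, with -1.15 in striatum and 1.74 in cerebellum (difference -2.89), and Tfap2b, with -1.06 in striatum and 1.39 in cerebellum (difference -2.45). The adjusted p of limma for these differences ran from 2.26e-15 for Ebf3 to 1.05e-11 for Tfap2b.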

How the results depend on the processing

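All 30 genes with the largest differences kept their direction and passed in each of 19 alternatives, with a smallest absolute difference of 1.49 on the log2 scale. They were chosen on these same arrays for large differences without overlap in the ratio and the sorted-cell channel. Their stability therefore follows in large part from the choice and says little about other genes. The count of 385 genes with a 2-fold difference became 1153 with the software's own log ratio, 695 with median centring (466 higher, 229 lower), 515 with scale normalization (249 higher, 266 lower) and 592 with an offset of 16; without 1 array it ran from 373 to 438. The 10574 called genes became 5508 in the sorted-cell channel alone (53.0% higher, against 40.7%) and 5868 with that channel quantile normalized, and 7899 to 9522 without 1 array. Sorted-channel calls ran from 2845 to 5934 without 1 array (2845 without striatum replicate 1, 3630 without cerebellum replicate 1), and reference-channel calls were 2 with the 12 regional arrays and 0 to 2 without 1 array. The main fit used no pairing by replicate number. Deviations from the group means correlated at -0.11, -0.11 and -0.05 for equal numbers and at -0.026 to 0.10 for unequal ones. With 3 arrays per group these values cannot show whether samples share animals. The fit with a replicate block called 11370 genes, 387 of them 2-fold. Small differences of Olig2, Ptf1a, Hba-a1, Gli1, Ptgds, Six3, Grik3, Dbh, Ikzf2 and Ppp1r1b lost their call without single arrays (adjusted p up to 0.243, for Hba-a1 without cerebellum replicate 1). Calls were also lost with median centring (Abat, Arpp21, Calb2, Dab1, Gli1, Grik3, Grin2c, Hes5, Ikzf2, Rora, Slc6a11 and Sst), with scale normalization (Cdh8, Dbh, Gabbr1, Gria1, Grik3, Nts, Ppp1r1b, Th and Tubb3) and with the mean of a gene's probes (Arpp21, Calb2, Gabbr1, Gli3, Grik3, Kl, Mog, Olig2, Oprm1 and Rora). The sorted-cell channel alone lost the calls of 19 genes checked under every alternative, among them Atoh1 (-0.50, adjusted p = 0.085), Eya1, Gli2, Igf2, Oprm1, Ptf1a and Six3, and 22 when quantile normalized. Clic6, Drd2, Folr1, Gad1, Gsx2, Slc17a6, Tac1 and Tbr1 passed under some setting. Signs turned for some small values. With median centring Ppp1r1b came to 0.13 and Ptgds to 0.023, and the medians of the GABA handling, glutamate receptor, immediate early, postmitotic and indirect pathway lists to 0.061, 0.065, 0.13, 0.22 and 0.23. With scale normalization Olig2 came to -0.0031, Hba-a1 to -0.019, Tbr1 to -0.41, Slc17a7 to -0.78, Igf2 to -0.29 and Ikzf2 to 0.10, and the medians of the caudal eminence, immediate early, medial eminence, Notch, semaphorin, striosome and matrix, and endothelial lists to -0.097, 0.031, -0.00086, 0.0036, -0.092, -0.16 and -0.15. With the mean of a gene's probes Ikzf2 came to 0.20 and the indirect pathway median to 0.52. In the sorted-cell channel the Notch median was 0.031, and with quantile normalization of that channel 0.028 (Notch) and 0.014 (postmitotic). The causes of these shifts were not tested. Dim genes are limited by signal over background, and 27 of 152 2-fold genes with several probes had a probe of opposite sign.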

Other observations

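Receptors for the main transmitters differed by small amounts. Of 16 GABA receptor subunit genes 1 was higher in striatum (Gabbr1, 0.36) and 6 lower, with a median of -0.22 and 0 past 2-fold, and of 24 glutamate receptor subunit genes 4 were higher and 9 lower, with a median of -0.18. Grik5 (0.80) and Gria1 (0.54) were higher, and the NMDA receptor subunit Grin2c (-0.49), known from cerebellar granule cells, was lower. With scale normalization Gria1 gave 0.24 (adjusted p = 0.12) and Gabbr1 0.23 (adjusted p = 0.11), and with median centring Grin2c gave -0.08 (adjusted p = 0.70). Of 7 chloride cotransporter genes 2 were higher, among them Slc12a9 (0.52), and 1 lower (Slc12a1, -0.59), with a median of 0.14. Of 13 monoaminergic and cholinergic genes 2 were higher (Th, 0.36, and Dbh, 0.32) and 4 lower, among them Nr4a2 (-1.07), a nuclear receptor of dopaminergic neurons, with a median of -0.03. Th gave 0.17 (adjusted p = 0.19) and Dbh 0.30 (adjusted p = 0.072) with scale normalization.

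Of 15 postmitotic neuron genes 3 were higher, with Tubb3 (0.71), an early neuronal tubulin, at the top, and 6 lower, among them the neurofilament genes Nefm (-1.22) and Nefl (-0.75) and the synaptic vesicle gene Syp (-0.90), with a median of -0.21. Tubb3 gave 0.33 (adjusted p = 0.11) with scale normalization. Of 20 proliferation genes 3 were higher, among them Cdk1 (0.58), and 5 lower, among them the replication helicase genes Mcm3 (-0.76) and Mcm2 (-0.47), with a median of 0.01, close to the 15.8% and 23% of all genes called in these directions. Of 17 retinoic acid genes 3 were higher and 4 lower, with a median of -0.13. Rara, a retinoic acid receptor, was higher by 1.60, with log2 ratios of 0.40, 0.33 and 0.35 in striatum and -1.12, -1.49 and -1.12 in cerebellum, and the degrading enzyme Cyp26b1 was lower (-0.60).

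Of 18 classical cadherin genes 2 were higher, with Cdh8 at 0.63 (0.40 without cerebellum replicate 2, and 0.32 with an adjusted p of 0.065 with scale normalization), and 7 lower, with a median of -0.22. Of 15 immediate early and handling stress genes 3 were higher, with Jun at 1.31, and 3 lower, with a median of -0.14. Of 9 housekeeping genes 3 were higher and 0 lower, with a median of 0.26 and 0 past 2-fold. Of 5 sex-linked genes 0 were called, with a median of 0.03.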
